A study of Homo sapiens with 10 samples.

Results

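MHC class I molecules were studied here as 9 genes, which encode 4 heavy chains (HLA-B, HLA-C, HLA-E and HLA-F), the shared light chain (B2M), the peptide transporter (TAP1 and TAP2), its bridge to the empty molecule (TAPBP) and the transactivator of the pathway (NLRC5). The members were chosen by symbol, and every probe set annotated only to 1 of these symbols was read, 25 in all. For each gene the probe set with the highest mean over the 10 arrays was the main row. All 9 genes passed the filter on low values, out of 14529 genes tested and 19775 genes with a probe set of 1 symbol. Levels were measured on 10 Affymetrix arrays of cultured mantle cell lymphoma lines, a tumour of mature B cells, harvested in logarithmic growth. The groups were HBL2 BR (3 arrays), HBL2 PT (3), JEKO BR (2) and JEKO PT (2). BR cells carry induced resistance to bortezomib, a proteasome inhibitor, and PT cells are the matched cells of the same line, read here as the parental cells, which is knowledge of the study and not of the labels. The labels do not say whether bortezomib was present at harvest, how many resistant populations were raised from each line, or whether replicates came from different cultures. The p-values therefore reflect variation among these arrays alone, and that variation may be technical.

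Class I molecules display peptides from inside the cell to CD8 T cells, and natural killer cells read their presence as well. Peptides are cut by the proteasome, pumped into the endoplasmic reticulum by the TAP1 and TAP2 transporter, and loaded with the help of tapasin, the product of TAPBP, onto a heavy chain paired with beta-2 microglobulin. NLRC5 acts on the promoters of class I genes together with factors that bind a conserved set of boxes, while interferon and NF-kappa B signals act through boxes of their own. B cells carry high class I levels, and the proteasome links this pathway to the drug used to raise the BR cells.

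The deposited values are scores between 0 and 4.99, identical as a set on every array, so a score depends only on a probe set's rank on its array. The scale is log-like with no stated base, and changes are given as differences in score, BR minus PT, and never as folds. Such values cannot show a shift shared by most genes. Levels of different genes were not compared, since probe sets differ in how they bind. Of 6 B cell markers 5 had a probe set, at the 71.3rd to 99.4th percentile of the arrays, and the mantle cell lymphoma markers CCND1 and SOX11 lay at or above the 80.5th. Of 8 T and NK cell markers 7 failed the filter. Bulk RNA does not tell fewer cells of a type from less RNA per cell.

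The promoters of the members are the place where NLRC5, interferon and NF-kappa B signals meet, so 4 boxes were searched there. RefSeq (GRCh38.p14) gave a promoter window for 7 of the 9 genes, and the 250 bases before each start were searched on both strands. The boxes were GAAA and GAAA with any 2 bases between them (the interferon-stimulated response element, ISRE), GGGA and CC with any 4 bases between them (kappa B), CCAAT, and TGACG (the core of a cyclic AMP response element, CRE). Windows of HLA-B, HLA-C, B2M and TAP1, which were called lower in HBL2 BR, are shown beside that of TAPBP, which was not called. Capitals mark every match to any of the 4 boxes, and overlapping or adjoining matches run together.
HLA-B (chr6:31357180-31357429, minus strand): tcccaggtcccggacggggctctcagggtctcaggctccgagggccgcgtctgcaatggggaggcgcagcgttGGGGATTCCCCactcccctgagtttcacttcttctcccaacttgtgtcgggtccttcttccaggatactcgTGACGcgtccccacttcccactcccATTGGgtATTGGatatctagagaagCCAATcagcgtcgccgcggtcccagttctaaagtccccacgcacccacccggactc
HLA-C (chr6:31272093-31272342, minus strand): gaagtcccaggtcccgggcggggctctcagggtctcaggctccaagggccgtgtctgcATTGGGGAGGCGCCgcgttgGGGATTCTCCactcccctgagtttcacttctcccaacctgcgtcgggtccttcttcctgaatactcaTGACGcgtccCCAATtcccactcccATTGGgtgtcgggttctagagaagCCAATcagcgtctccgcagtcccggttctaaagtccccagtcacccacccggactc
B2M (chr15:44711267-44711516, plus strand): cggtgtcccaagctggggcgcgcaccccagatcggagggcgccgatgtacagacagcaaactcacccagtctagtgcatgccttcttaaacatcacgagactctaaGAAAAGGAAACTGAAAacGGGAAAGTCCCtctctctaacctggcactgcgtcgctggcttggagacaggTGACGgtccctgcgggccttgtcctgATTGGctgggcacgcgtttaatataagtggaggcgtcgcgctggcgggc
TAP1 (chr6:32853705-32853954, minus strand): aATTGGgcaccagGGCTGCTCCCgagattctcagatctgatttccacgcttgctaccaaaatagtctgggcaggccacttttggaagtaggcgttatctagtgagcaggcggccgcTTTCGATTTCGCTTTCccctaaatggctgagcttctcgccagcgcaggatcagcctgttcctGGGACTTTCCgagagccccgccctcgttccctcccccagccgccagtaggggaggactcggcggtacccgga
TAPBP (chr6:33314079-33314328, minus strand): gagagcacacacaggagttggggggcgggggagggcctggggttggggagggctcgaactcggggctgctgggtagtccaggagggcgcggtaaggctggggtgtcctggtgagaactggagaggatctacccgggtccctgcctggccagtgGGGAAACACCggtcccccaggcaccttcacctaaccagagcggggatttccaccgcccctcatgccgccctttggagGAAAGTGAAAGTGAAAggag

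The ISRE was matched in 5 of the 7 genes (HLA-F, B2M, TAP1, TAP2 and TAPBP), against 3.02% of the 35116 RefSeq windows of that length. The kappa B box was matched in HLA-B, HLA-C, B2M, TAP1 and TAPBP, against 22.6% of all windows. CCAAT was matched in HLA-B, HLA-C, HLA-F, B2M and TAP1, against 32.0%, and the CRE core in HLA-B, HLA-C, B2M and TAP2, against 21.2%. The CRE core began at base -106 in HLA-B, at base -105 in HLA-C and at base -75 in B2M, counted back from the start. TAP1 has a further window with 0 matches. TAP2 and TAPBP, the members not called below, hold ISRE matches, as do HLA-F, B2M and TAP1, which were called. Any part of these boxes in the changes was not tested. Only exact matches to these letters were counted, so a window without a match, such as HLA-B or HLA-C for the ISRE, may still hold a variant. Matches are letters in a window and say nothing of binding in these cells.

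In HBL2, BR cells had lower class I levels than PT cells. On the main probe sets all 4 heavy chain genes, B2M, TAP1 and NLRC5 fell, 7 of 9 genes, and 0 rose. TAP2 and TAPBP did not pass the test. The main probe sets of the 4 heavy chains can bind related sequences, so the 7 falls are not all separate measurements. Over all genes tested, 6.86% were called lower and 4.91% higher in the same comparison. The median change of the 9 was -0.47, against -9.87e-04 over all genes. Calls are adjusted p-values under 0.05 from limma, with Benjamini-Hochberg adjustment over all genes, and each ± of a difference is its standard error in limma.

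Among the heavy chains, HLA-B and HLA-C encode classical molecules that present peptides to CD8 T cells. HLA-B scored 2.75, 2.78 and 2.93 on the HBL2 BR arrays, against 3.23, 3.35 and 3.36 on the HBL2 PT arrays. It fell by 0.50 ± 0.061 (limma adjusted p = 3.77e-05). HLA-C scored 2.81, 2.73 and 2.83 in HBL2 BR and 3.33, 3.26 and 3.32 in HBL2 PT. It fell by 0.51 ± 0.055 (limma adjusted p = 8.97e-06), and in both genes each BR array lay below each PT array.

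HLA-E, a nonclassical heavy chain that shows leader peptides of other class I chains to receptors of natural killer cells, scored 1.70, 1.71 and 1.88 in HBL2 BR, against 2.40, 2.21 and 2.31 in HBL2 PT. Its fall of 0.54 ± 0.069 (limma adjusted p = 5.24e-05) was the largest of the 9 on the main probe sets. HLA-F, a nonclassical chain, scored 1.91, 1.93 and 2.02 in HBL2 BR, against 2.44, 2.37 and 2.47 in HBL2 PT. It fell by 0.47 ± 0.061 (limma adjusted p = 6.6e-05). The arrays of BR and PT did not overlap in either gene.

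B2M, the shared light chain of class I molecules, scored 3.40, 3.43 and 3.39 in HBL2 BR and 3.56, 3.78 and 3.95 in HBL2 PT. It fell by 0.35 ± 0.076 (limma adjusted p = 0.0050), and the PT arrays were spread more widely than the BR arrays. It lay at or above the 99.6th percentile on every array.

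Of the loading genes, TAP1 fell and its partner did not pass the test. TAP1 scored 1.33, 1.31 and 1.42 in HBL2 BR, against 1.59, 1.64 and 1.65 in HBL2 PT, a fall of 0.27 ± 0.060 (limma adjusted p = 0.00577). TAP2 scored 1.703, 1.54 and 1.76 in HBL2 BR, against 1.78, 1.77 and 1.84 in HBL2 PT. The TAP2 difference was -0.13 with a 95% interval of -0.27 to 0.0060 (limma adjusted p = 0.24), although its BR arrays all lay below its PT arrays. TAPBP, the tapasin gene, scored 2.004, 1.95 and 2.29 in HBL2 BR, against 2.41, 2.23 and 1.96 in HBL2 PT. Its groups overlapped, with a difference of -0.12 and an interval of -0.35 to 0.11 (limma adjusted p = 0.56).

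NLRC5, the transactivator, scored 1.04, 1.12 and 1.14 in HBL2 BR, against 1.55, 1.48 and 1.85 in HBL2 PT. It fell by 0.52 ± 0.085 (limma adjusted p = 5.07e-04), with no overlap of the arrays. In 8 of the 9 genes, all but TAPBP, each HBL2 BR array lay below each HBL2 PT array, against 14.5% of all genes tested. RNA quality was read from the beta-actin control probe sets as the 5' score less the 3' score, which ran from -1.04 to -0.69 in HBL2 BR and from -1.25 to -0.58 in HBL2 PT. With that value as a covariate the same 7 genes were called, with falls of 0.27 to 0.53.

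**Figure D1:**
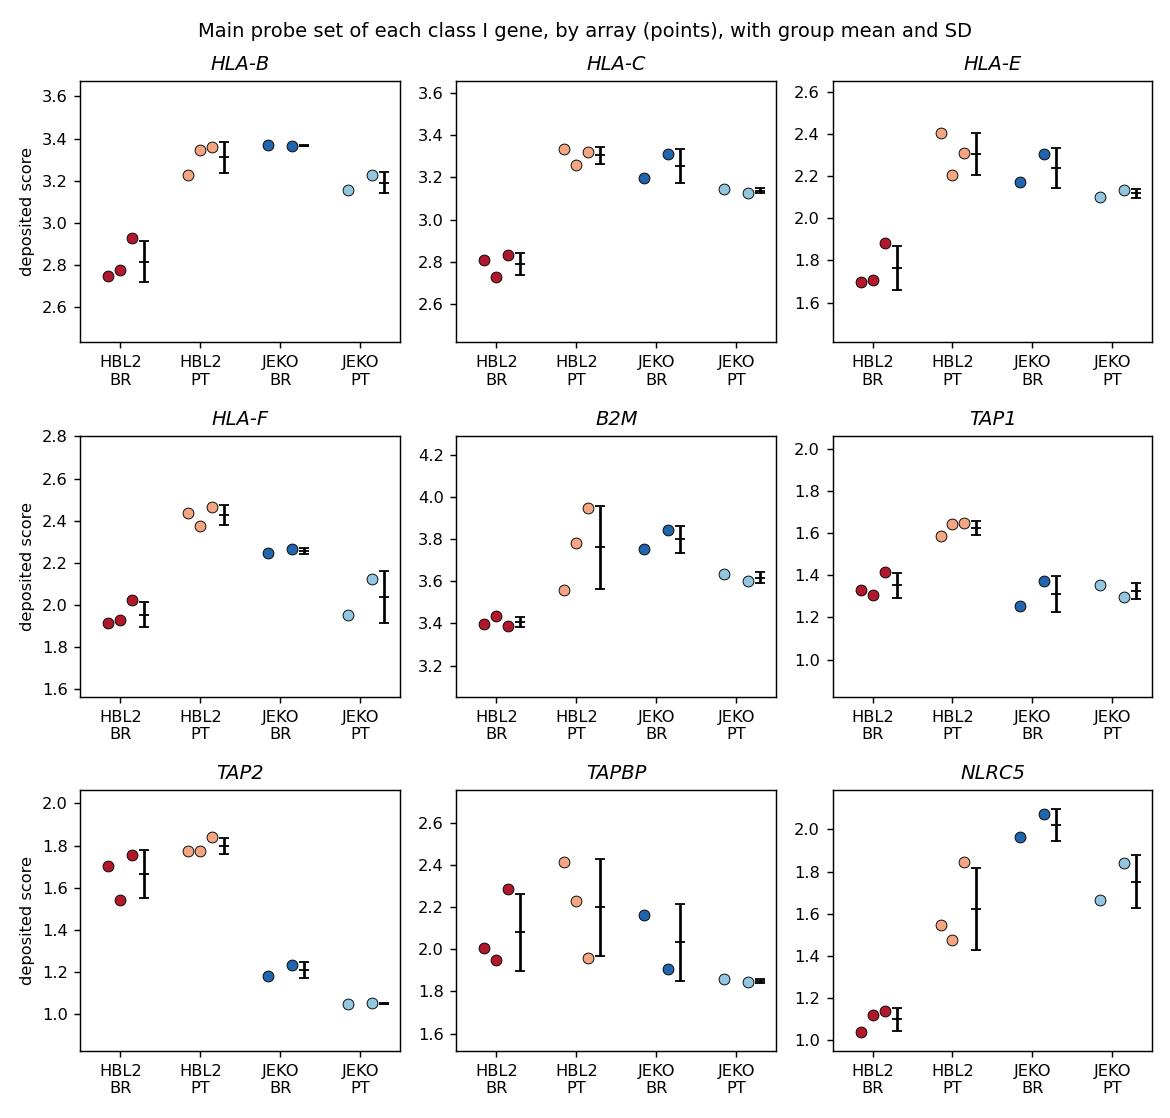
Deposited score (y axis, log-like, no base stated) of the main probe set of each gene in the 4 groups; points are arrays, and the bar beside them gives the mean and SD (n = 3 for HBL2 groups, n = 2 for JEKO groups). Each panel spans the same range of score, and HBL2 BR lies lowest for HLA-B, HLA-C, HLA-E, B2M and NLRC5.

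In JEKO, 0 of the 9 genes were called in either direction, against 4.28% of all genes tested. On the main probe sets the differences were positive in all members except TAP1, from 0.11 in HLA-C to 0.27 in NLRC5. The median of the 9 was 0.18, against 0.012 over all genes. At an unadjusted p under 0.05 there were 3 genes, HLA-B, HLA-F and NLRC5, against 17.6% of all genes. In 8 of 9 genes both BR arrays lay above both PT arrays, against 28.3% of all genes, so with 2 arrays a group this is not rare. The beta-actin value was -0.76 and -1.01 in JEKO BR, and -0.70 and -0.82 in JEKO PT. The same value for the GAPDH control was lowest in JEKO BR replicate 2, at -0.64, against -0.44 to -0.17 on the other arrays. With the beta-actin value as a covariate 0 members were called in JEKO.

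HLA-F scored 2.25 and 2.27 in JEKO BR, against 1.95 and 2.12 in JEKO PT. The difference of 0.22 had a 95% interval of 0.058 to 0.38 (limma adjusted p = 0.12). NLRC5 scored 1.96 and 2.07 in JEKO BR, against 1.66 and 1.84 in JEKO PT, a difference of 0.27 with an interval of 0.047 to 0.49 (limma adjusted p = 0.18). HLA-B scored 3.37 and 3.36 in JEKO BR, against 3.16 and 3.22 in JEKO PT, a difference of 0.18 with an interval of 0.017 to 0.33 (limma adjusted p = 0.23). In these 3 genes the groups were apart, and their adjusted p-values missed the threshold.

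B2M scored 3.75 and 3.84 in JEKO BR, against 3.63 and 3.60 in JEKO PT, a difference of 0.18 (limma adjusted p = 0.34). HLA-C scored 3.195 and 3.31 in JEKO BR, against 3.15 and 3.13 in JEKO PT, a difference of 0.11 (limma adjusted p = 0.42). HLA-E scored 2.17 and 2.31 in JEKO BR, against 2.101 and 2.13 in JEKO PT, a difference of 0.12 (limma adjusted p = 0.51). TAP2 scored 1.18 and 1.24 in JEKO BR and 1.05 and 1.05 in JEKO PT, a difference of 0.16 (limma adjusted p = 0.32). TAPBP scored 2.16 and 1.904 in JEKO BR, against 1.86 and 1.84 in JEKO PT, a difference of 0.18 (limma adjusted p = 0.52). TAP1 was the member whose JEKO arrays overlapped, with 1.25 and 1.37 in JEKO BR, 1.35 and 1.299 in JEKO PT, and a difference of -0.013 (interval -0.17 to 0.14).

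The change differed between the lines for 6 of the 9 genes, all in the direction of a lower value in HBL2, against 5.76% of all genes tested. The HBL2 change minus the JEKO change was -0.79 ± 0.13 for NLRC5 (limma adjusted p = 0.00146), -0.69 ± 0.097 for HLA-F, -0.67 ± 0.097 for HLA-B, -0.67 ± 0.11 for HLA-E, -0.63 ± 0.088 for HLA-C and -0.54 ± 0.12 for B2M (limma adjusted p = 0.0103). The B2M difference was not called without JEKO BR replicate 2 (-0.49, limma adjusted p = 0.0702), when probe sets were reduced to their median (-0.21, limma adjusted p = 0.48), without _x_at and _s_at probe sets (-0.064, limma adjusted p = 0.88) or with percentile ranks (limma adjusted p = 0.61). That of HLA-F was -0.11 without _x_at and _s_at probe sets (limma adjusted p = 0.65), and those of HLA-B and HLA-C were not called with percentile ranks (limma adjusted p = 0.16 and 0.14). The 3 loading genes did not pass this test. Their differences were -0.26 for TAP1, -0.29 for TAP2 and -0.30 for TAPBP (limma adjusted p = 0.10, 0.093 and 0.32).

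**Figure D2:**
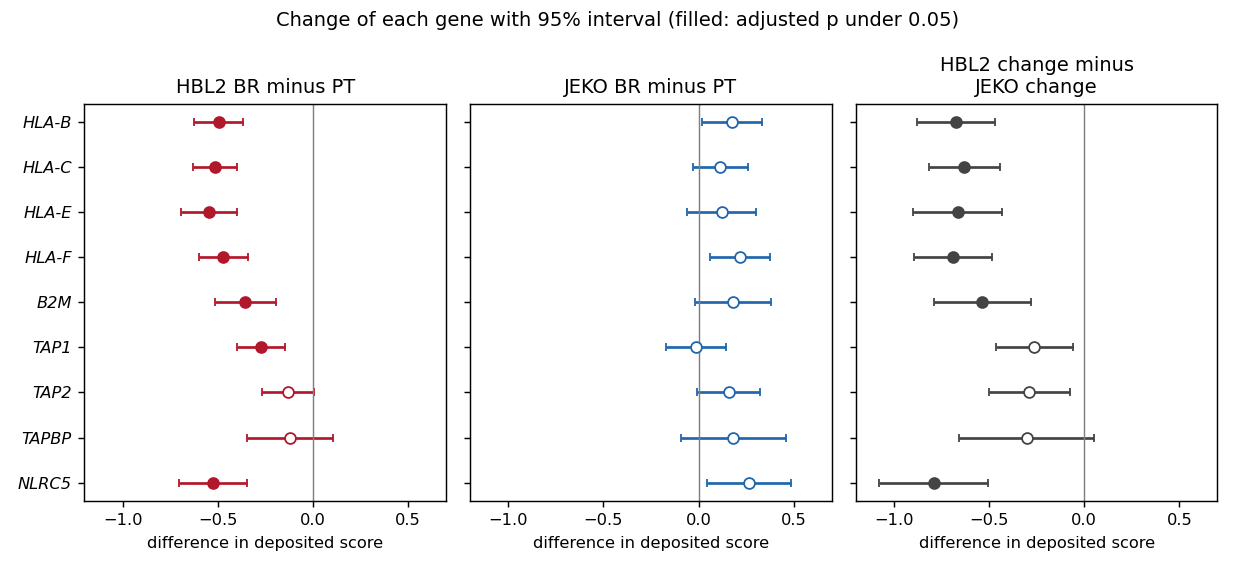
Difference in deposited score (x axis) with its 95% interval for each gene in HBL2 (BR minus PT), in JEKO (BR minus PT) and for the HBL2 change minus the JEKO change; filled points passed the test. The 7 filled points in HBL2 lie left of 0, none is filled in JEKO, and 6 are filled in the right panel.

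The levels of the lines were also compared within each state. Among PT cells, HBL2 was higher than JEKO for 4 members, against 13.9% of all genes called higher in HBL2, and lower for 0, against 9.25%. On the main probe sets TAP2 had the largest such difference, 0.75 ± 0.072 (limma adjusted p = 1.56e-06), followed by HLA-F (0.39), TAPBP (0.35) and TAP1 (0.30, limma adjusted p = 0.00389). The other TAP2 probe sets differed by 0.064, 0.40 and 0.28 (limma adjusted p = 0.69, 0.036 and 0.20 over all probe sets). Without _x_at and _s_at probe sets HLA-F differed by 0.104 and was not called (limma adjusted p = 0.41), while HLA-E was called (0.38, limma adjusted p = 0.0079). Calls were also gained by HLA-C with the median over probe sets (0.24, limma adjusted p = 0.017) and by B2M with the beta-actin covariate (0.19, limma adjusted p = 0.045). NLRC5 was called lower in HBL2 PT with array weights (-0.22, limma adjusted p = 0.049). The TAPBP call (limma adjusted p = 0.043) was lost in 13 of 22 alternatives, and that of TAP1 without JEKO PT replicate 2. Among BR cells, HBL2 was lower than JEKO for 6 members, against 14.1% of all genes: NLRC5 (-0.92 ± 0.095, limma adjusted p = 2.36e-06), HLA-B (-0.55), HLA-E (-0.48), HLA-C (-0.46), B2M (-0.39) and HLA-F (-0.30). Without _x_at and _s_at probe sets HLA-F differed by -0.0069 (limma adjusted p = 0.97) and B2M by -0.28 (limma adjusted p = 0.078). The B2M call was also lost with the median over probe sets (-0.25, limma adjusted p = 0.097) and with percentile ranks (limma adjusted p = 0.45). TAP2 stayed higher in HBL2 BR than in JEKO BR, by 0.46 ± 0.072 (limma adjusted p = 1.56e-04), against 14% of all genes called higher. With the median over probe sets that TAP2 call was lost (limma adjusted p = 0.23).

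For HLA-B, HLA-C, HLA-E, B2M and NLRC5 the 3 HBL2 BR arrays lay below every array of the other groups. The order of mean scores for HLA-B was JEKO BR (3.37), HBL2 PT (3.31), JEKO PT (3.19) and HBL2 BR (2.82), and HBL2 PT did not differ from JEKO PT by the test (limma adjusted p = 0.23). For NLRC5 it was JEKO BR (2.02), JEKO PT (1.75), HBL2 PT (1.62) and HBL2 BR (1.098), with the arrays of the middle pair overlapping. HLA-F differed in that its HBL2 BR arrays reached into the range of JEKO PT. On its main probe set TAP2 was higher in both HBL2 groups than in both JEKO groups on each array. The mean score over the 9 main probe sets ran from 2.05 to 2.18 on the HBL2 BR arrays, from 2.45 to 2.52 in HBL2 PT, from 2.37 to 2.41 in JEKO BR and from 2.21 to 2.25 in JEKO PT.

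Reading every probe set of a gene shows how far a result rests on 1 of them. Of the 25, all but a TAPBP probe set passed the filter, and 15 of the 24 were called lower in HBL2 BR and 0 higher, against 4.62% and 3.44% of the 27577 probe sets tested. In JEKO, 0 of the 24 were called, against 1.41% of probe sets higher and 1.12% lower. Their median JEKO difference was 0.13, but other probe sets did not all share the direction of the main row. A TAPBP probe set differed by -0.16, with both BR arrays below both PT arrays. Other negative values were -0.093 and -0.018 in TAP2 and -0.014 in HLA-F, and the other B2M probe sets differed by 0.0057 and 0.014. All 3 probe sets of HLA-B (-0.50 to -0.45), all 4 of HLA-C (-0.53 to -0.43) and all 3 of HLA-E (-0.56 to -0.45) fell in HBL2 BR. Most of these end in _x_at, a mark for probes that can bind related sequences, as do the main probe sets of all 4 heavy chain genes. HLA heavy chains are close relatives, so falls on such probe sets are not separate measurements of each gene.

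HLA-E has a probe set without that mark, which scored 0.97, 1.07 and 1.31 in HBL2 BR, against 1.75, 1.59 and 1.69 in HBL2 PT, a fall of 0.56 (limma adjusted p = 6.33e-04 over all probe sets). In JEKO BR it scored 1.59 and 1.79, against 1.22 and 1.37 in JEKO PT, a difference of 0.40 (limma adjusted p = 0.067). That difference was called, with a limma adjusted p of 0.043, when all _x_at and _s_at probe sets were left out of the fit.

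The probe set of HLA-F without that mark differed by -0.13 in HBL2 (limma adjusted p = 0.35), against falls of 0.47 and 0.38 on the pair that carry it. The other probe sets of B2M differed by -0.21 (limma adjusted p = 0.23) and -0.050 (limma adjusted p = 0.85), so the B2M call rests on its brightest probe set. It was lost with the median over probe sets (limma adjusted p = 0.22) and with percentile ranks (limma adjusted p = 0.56). TAP1 and NLRC5 have a single probe set each. The other probe sets of TAP2 differed by -0.13 to 0.018 in HBL2.

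**Figure D3:**
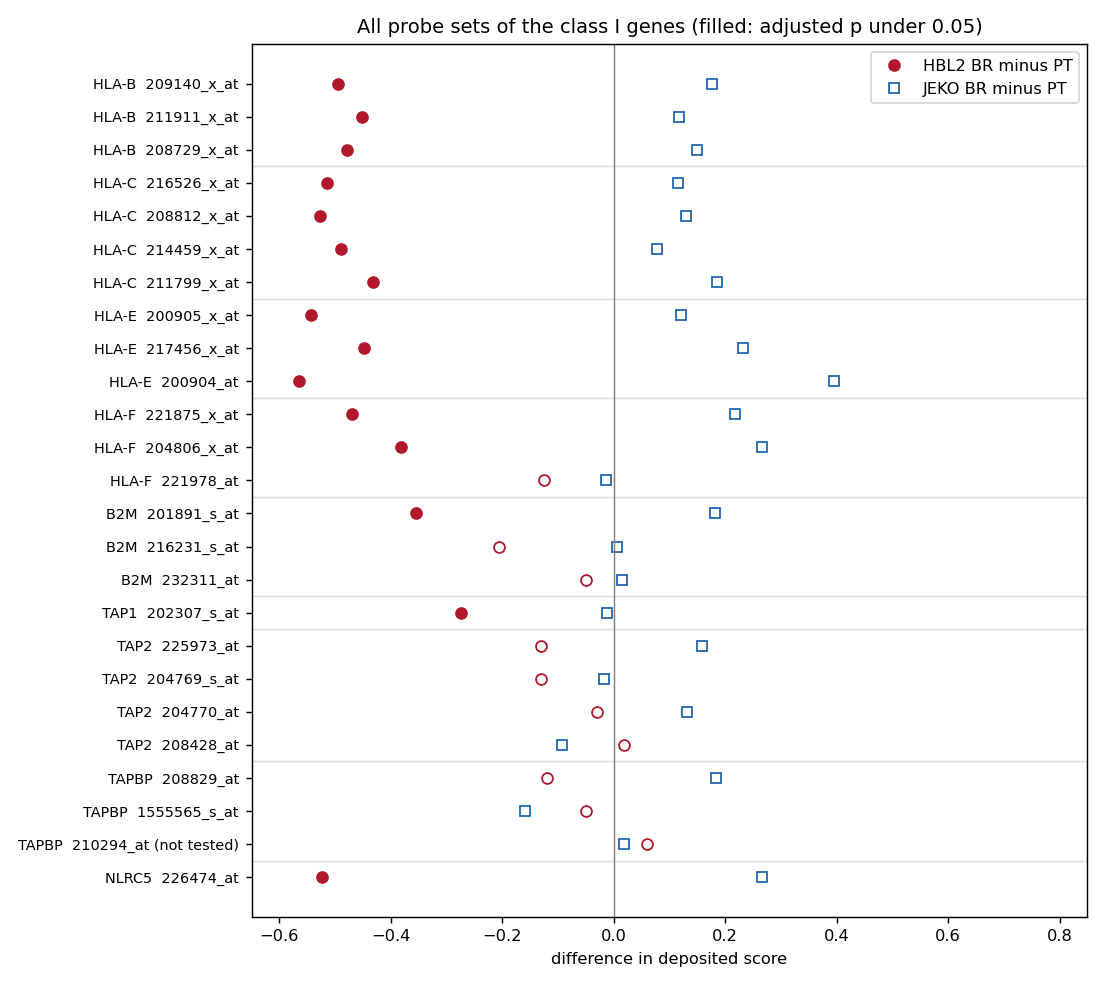
Difference in deposited score, BR minus PT (x axis), for each of the 25 probe sets in HBL2 (red circles) and JEKO (blue squares); filled symbols passed the test over all probe sets. All HLA-B, HLA-C and HLA-E probe sets are filled in HBL2, and no JEKO symbol is filled.

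Of 15 genes for folding, peptide trimming and export, 1 was called in HBL2, BLMH, a peptide-trimming protease, higher by 0.27 (limma adjusted p = 0.045, lost in 16 of 24 alternatives), and 0 in JEKO. The chaperones of the loading complex, CALR and PDIA3, differed by -0.10 and 0.20 in HBL2 (limma adjusted p = 0.62 and 0.095). The peptide-trimming enzymes ERAP1 and ERAP2 differed by 0.062 and 0.12. The median of the list was 0.078 in HBL2 and 0.020 in JEKO.

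In the list of immunoproteasome, activator and constitutive core genes, 2 of 8 fell and 1 rose in HBL2, against 6.86% and 4.91% of all genes. PSMB8 (-0.37 ± 0.059) and PSMB9 (-0.36 ± 0.065, limma adjusted p = 0.00125), the inducible subunits encoded beside TAP1 and TAP2, fell, and PSMB6, the constitutive counterpart of PSMB9, rose by 0.35 ± 0.054. PSMB10, also an inducible subunit, and PSMB5, a constitutive one, differed by 0.014 and 0.073 in HBL2 and were not called (limma adjusted p = 0.93 and 0.45). In JEKO 0 of the 8 were called. For the HBL2 change minus the JEKO change, 3 of the 8 were called lower, against 5.76% of all genes, and 1 higher. Those lower were PSMB9 (-0.61, limma adjusted p = 0.00134), PSMB8 (-0.47, limma adjusted p = 0.0048) and PSME1 (-0.36, limma adjusted p = 0.041). PSMB6 was higher (0.34, limma adjusted p = 0.021), a call lost in 6 of 23 alternatives.

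Of 11 other class I and class I-like genes with a probe set, 6 passed the filter, 2 fell in HBL2 and 2 rose in JEKO. In HBL2 these were CD1C, which presents lipids (-0.60 ± 0.103, limma adjusted p = 8.93e-04), and HLA-G (-0.52 ± 0.077), whose probe sets all end in _x_at. In JEKO they were CD1D, which presents lipids to NKT cells (0.44 ± 0.073, limma adjusted p = 0.00262), and FCGRT, the heavy chain of the neonatal Fc receptor (0.41 ± 0.097, limma adjusted p = 0.025). CD1D and FCGRT molecules also pair with the B2M product. The FCGRT call was lost without JEKO PT replicate 1 or either JEKO BR replicate. Of 4 tested ligands of NKG2D, an activating receptor of natural killer cells, 0 were called in either line (medians -0.0058 in HBL2 and 0.105 in JEKO).

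Among 30 regulators of class I transcription, 5 fell and 1 rose in HBL2, against 6.86% and 4.91% of all genes tested. CREB1, which binds cyclic AMP response elements, fell by 0.47 ± 0.071, or by 0.22 with the median over probe sets. The interferon regulatory factor IRF7 fell by 0.44 ± 0.069 and IRF8 by 0.39 ± 0.066, while IRF4, a factor of plasma cells, rose by 0.43 ± 0.076. IRF7 was also the regulator called in JEKO, in the other direction (0.31 ± 0.085, limma adjusted p = 0.048), a call lost in 16 of 23 alternatives. RFX5, RFXAP and RFXANK, subunits of the factor that works with NLRC5, differed by -0.046 to 0.074 in HBL2, with 0 called. The others that fell in HBL2 were IFNGR2 (-0.30, limma adjusted p = 0.0056) and IRF9 (-0.22, limma adjusted p = 0.021). IRF1 differed by -0.024 and RELA by 0.086, and neither was called.

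MHC class II genes, which present peptides to CD4 T cells, fell with class I in HBL2, in 10 of 11 members with a median of -0.63, and 0 were called in JEKO (median 0.013). HLA-DQA1 (-1.33, but -0.36 with the median over probe sets, and not called with percentile ranks), HLA-DPA1 (-0.94), HLA-DRB1 (-0.94) and HLA-DPB1 (-0.82, but -0.54 with that median and -0.27 without _x_at and _s_at probe sets) fell most.

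**Figure D4:**
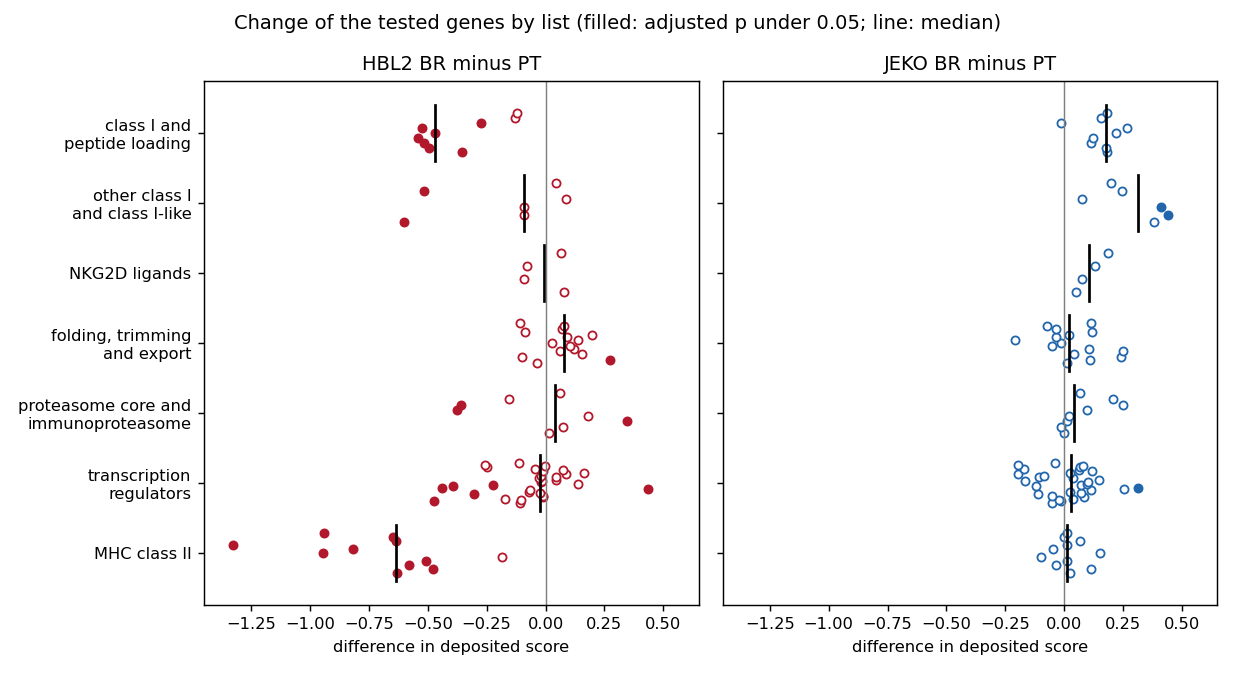
Difference in deposited score, BR minus PT (x axis), of each tested gene by list in HBL2 (left) and JEKO (right); filled points passed the test and black lines are medians. In HBL2 the medians of class I and class II lie at -0.47 and -0.63, and those of the 5 other lists plotted between -0.092 and 0.078; marker lists are not plotted.

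Of the members, 7 lie on chromosome 6, within the MHC, with B2M on chromosome 15 and NLRC5 on chromosome 16. Between HLA-F and TAPBP in the RefSeq order, 103 other genes were tested. In HBL2 17 of them fell and 2 rose, against 6.86% and 4.91% of all genes, and 0 were called in JEKO. After the class II and other listed genes were set aside, a step chosen once values were known, 5 of 88 fell and 2 rose. That step took out most of the known falls, so the share left cannot be set against that of all genes. The largest of these changes were in HCP5, a noncoding gene beside the class I genes (-0.73 ± 0.073), AIF1, a gene of myeloid cells (-0.70 ± 0.074), IER3, an early response gene (0.50 ± 0.066), and HLA-DRB6, a class II pseudogene (-0.46 ± 0.076). The other falls among the 88 were in GPSM3 (-0.42) and HLA-J (-0.37). The median of the 103 was -0.036, against -9.87e-04 over all genes, and that of the 88 was -0.018.

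**Figure D5:**
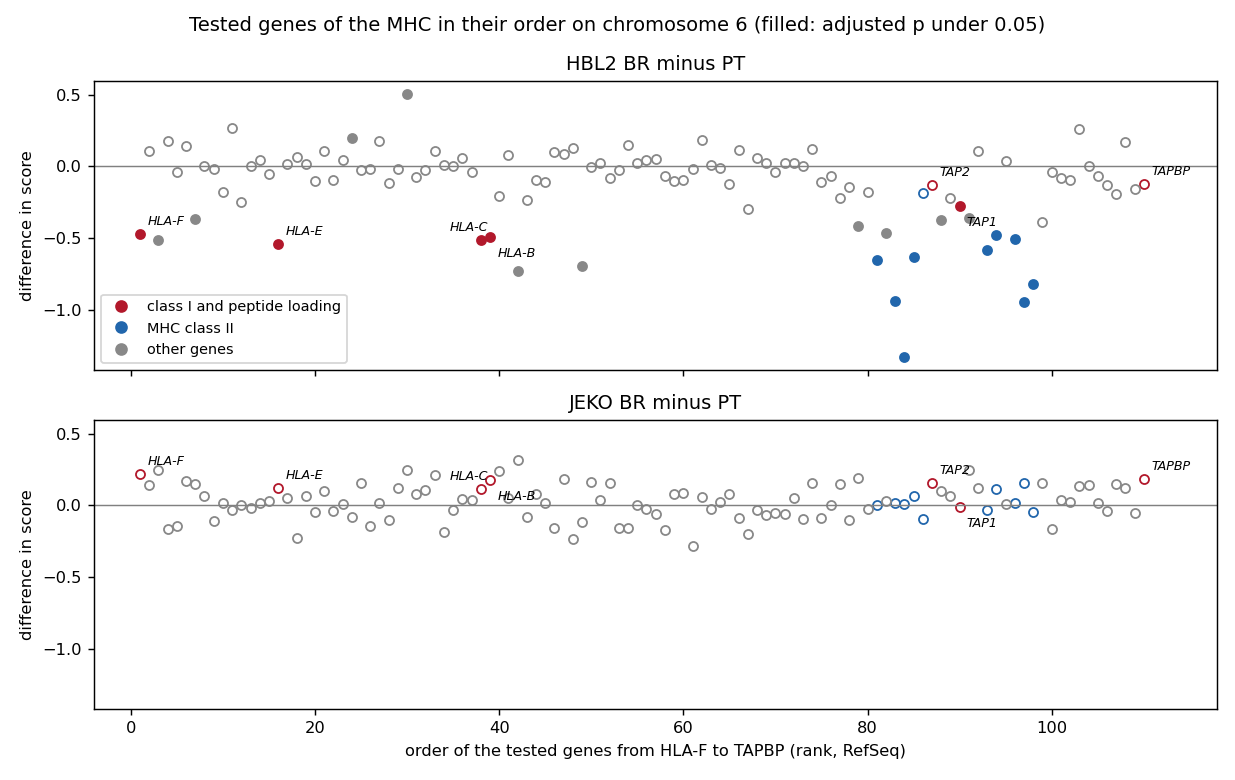
Difference in deposited score, BR minus PT (y axis), of the 110 tested genes from HLA-F to TAPBP in their order on chromosome 6 (x axis, rank) in HBL2 (top) and JEKO (bottom); filled points passed the test. The falls in HBL2 sit at the class I and class II genes and a few others, with most genes between them near 0.

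The genes with a pattern most like the members were HCP5 (r = 0.996), S100A4, a calcium-binding protein (0.996), CCL4, a chemokine (0.994), SIGLEC10, an inhibitory lectin (0.991), and INPP5D, a lipid phosphatase of B cells (0.988). The r is Pearson's over the 10 arrays, each centred on its line mean, against the mean of the 9 members, and points of 1 group share its cells, so no p is given. HCP5 averaged 0.25 ± 0.11 in HBL2 BR and 0.98 ± 0.047 in HBL2 PT (SD, n = 3 each). In JEKO it averaged 1.57 ± 0.053 in BR and 1.25 ± 0.019 in PT (SD, n = 2 each). S100A4 (0.42) and CCL4 (0.43) passed the test in JEKO (limma adjusted p = 0.022 and 0.021), but not without any 1 of the 4 JEKO arrays.

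Markers of B cells and of other cells were read beside these results. Of the 5 B cell markers tested, CD79A and CD79B, the signalling chains of the B cell receptor, fell in HBL2 BR with the class I genes, and the list median was -0.18. CD79A fell by 0.35 ± 0.061 (limma adjusted p = 9.81e-04) and CD79B by 0.25 ± 0.063 (limma adjusted p = 0.0173). The CD79B call was lost with the median over probe sets and without HBL2 PT replicate 1, HBL2 BR replicate 1 or HBL2 BR replicate 2. In JEKO BR, CD22, a B cell inhibitory receptor, was called higher by 0.35 ± 0.093 (limma adjusted p = 0.042), a call lost in 13 of 24 alternatives. The other 4 B cell markers were not called in JEKO, and the list median there was -0.014. CD79A, CD79B and PAX5 differed by -0.092, -0.13 and -0.014 in JEKO, and MS4A1 by 0.096. The endothelial marker PECAM1 was the stromal and epithelial marker called, 1 of 6, lower in both lines (-0.47 ± 0.084 in HBL2 and -0.44 ± 0.103 in JEKO). In JEKO its call (limma adjusted p = 0.024) was lost without JEKO PT replicate 1 or either JEKO BR replicate. Both mantle cell lymphoma markers and both erythroid markers tested were not called in either line. Of 4 myeloid markers with a probe set 3 passed the filter, and their mean score over the 4 ran from 0.44 to 0.49 in HBL2 BR, from 0.61 to 0.76 in HBL2 PT, from 0.45 to 0.52 in JEKO BR and from 0.404 to 0.55 in JEKO PT. LYZ, the lysozyme gene, fell in HBL2 BR (-0.59 ± 0.14, limma adjusted p = 0.0088, not called without HBL2 PT replicate 1), while CD14 stayed at or under the 20.2nd percentile on every array. T and NK cell markers averaged 0.48 to 0.50 in HBL2 BR and 0.50 to 0.55 in HBL2 PT. The part of any of these markers or cells in the class I changes was not tested.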

How the data were processed

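Biotin-labelled total RNA of 10 samples was read on Affymetrix arrays. Per the submitters' processing notes MAS5 was used; its version and the steps after it are not known here. The deposited score per probe set, as the authors gave it, was used unchanged for 54675 probe sets; the largest difference between sorted arrays was 0. Arrays have no read depth, and their number limits precision. Of the probe sets, 41091 had 1 symbol in the platform annotation, 1801 several and 11721 none, and 62 were controls; only the first kind was used. A probe set was kept if at or above the 50th percentile of its array on at least 2 arrays, and the brightest represented its gene (14529 genes). Scores were fitted in R 4.3.3 with limma 3.58.1 (4 group means, 5 contrasts, intensity trend, 6 residual degrees of freedom), two-sided, with Benjamini-Hochberg adjustment over all genes. The fit was tested on simulated data with changes placed in HBL2 BR. It recovered 95 of 100 genes changed by 0.6 and 51 of 100 changed by 0.3, with 9 false calls. Changes in JEKO, with 2 arrays a group, were not simulated. Groups came from sample titles. The members and lists were chosen with earlier results of these data known. Named genes were the 9 members, up to 4 called genes per list and line with the largest change, and the 5 genes most like the members; others named with values were chosen after these were seen. Alternatives were other filters, variance models, array weights, each line alone, a replicate block, other choices of probe set, rank scales, a beta-actin covariate and leaving out each array.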

Additional observations from a re-analysis of the deposited data

Results flagged for a closer look

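The change between BR and PT cells differed between HBL2 and JEKO by the test of that difference for 6 genes. The HBL2 change minus the JEKO change was -0.671 for HLA-B, -0.63 for HLA-C, -0.665 for HLA-E, -0.688 for HLA-F, -0.536 for B2M and -0.791 for NLRC5. On the main probe set of each, the HBL2 change was called and negative and the JEKO change was positive and not called. Groups of 2 or 3 arrays were not searched for single outlying samples.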

How the results depend on the processing

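Over the BR minus PT changes and the difference between lines, 614 of 630 values of the 9 genes under an alternative kept their direction where called and their side of the threshold, 12 lost a call, 4 gained one, and 0 reversed a call. Without _x_at and _s_at probe sets, which leaves 6 members with a probe set, 2 members were called lower in HBL2, 2 for the difference between lines, 2 in HBL2 BR against JEKO BR, and 1 higher in JEKO (HLA-E). With percentile ranks 3 were called for the difference; ranks leave bright genes little room, since HLA-B, HLA-C and B2M lay above the 98th percentile, and HLA-B lost its HBL2 call there (adjusted p = 0.065). HLA-F lost its HBL2 call when such probe sets were dropped (adjusted p = 0.34). Taking each gene as the median of its probe sets, 0 members were called higher in HBL2 BR than JEKO BR. With array weights 1 member (NLRC5) was called lower in HBL2 PT than JEKO PT, and TAP1 and TAP2 gained a call for the difference.

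Counts over all genes moved more. With array weights 2684 genes were called in HBL2 (1711 in the report's fit), 1032 in JEKO (622) and 1948 for the difference (1266), and with no trend 389 in JEKO. Leaving out the 3 arrays with the lowest beta-actin values, an alternative chosen after seeing the data, 140 genes were called in JEKO, 619 for the difference and 2555 between BR cells of the lines (4083), while the same number of members, 7, was called lower in HBL2. Leaving out each array gave 1118 to 1647 genes in HBL2, with 7 members called each time; 120 (without JEKO BR replicate 2) to 942 (without HBL2 PT replicate 3) in JEKO, with 0 to 1 members called higher (NLRC5); 658 to 1473 for the difference, with 5 to 6 members; 1974 to 3610 between PT cells, with 2 to 4 members higher and 0 to 1 lower; and 2444 to 4609 between BR cells. A JEKO group of 1 array was then assumed to vary like the others. The cause of these moves was not tested. The replicate block gave 1741 genes in HBL2, 601 in JEKO and 1257 for the difference, and the same 7, 0 and 6 members. Replicate numbers shared by BR and PT were not taken as pairs, since the labels do not say that a number marks a shared culture. Deviations of same-numbered arrays correlated by 0.017, 0.14 and 0.0075 in HBL2, and those of differently numbered arrays by -0.20 to 0.15. In JEKO the value was 0.078, and with 2 arrays a group all its values share 1 size. With so few arrays these correlations cannot decide whether the numbers mark pairs.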
